A study of Sus scrofa with 20 samples.

Results

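miR-126 is a microRNA (miRNA) whose hairpin precursor yields a mature strand from each arm, miR-126-3p and miR-126-5p. Both strands were followed in small RNA libraries of pig blood cells taken around an experimental brain hemorrhage. The 4 entries described here were chosen by name, with earlier results of these data known. They are ssc-miR-126-3p and ssc-miR-126-5p in the counts against pig miRNAs (2 of 284 entries), and hsa-miR-126-3p and hsa-miR-126-5p in the counts against human miRNAs (2 of 608 entries). Those 2 tables hold 892 entries in all.

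Blood was fractionated on a density gradient, and the libraries were made from the mononuclear fraction (PBMCs, chiefly lymphocytes and monocytes) of female American Yorkshire pigs aged 80 to 90 days and weighing 36 to 41 kg. The ICH group (intracerebral hemorrhage, 10 libraries) was blood drawn 6 h after 2 to 4 mL of the animal's own blood had been injected into the frontal white matter through a burr hole. The Control group (10 libraries) was untreated blood drawn just before the injection, and replicate numbers 1 to 10 occur in both groups. The design describes an earlier and a later sample of the same study animals, while the labels carry no animal identifiers. Without a sham group among the libraries analysed, surgery and elapsed time cannot be told apart from the hemorrhage. The model is a single injection of autologous blood, which differs from a spontaneous vessel rupture.

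miR-126 is encoded inside EGFL7, a gene for a protein secreted by endothelial cells, and is known in human, mouse and zebrafish as an miRNA of vascular endothelium. There miR-126-3p represses SPRED1 and PIK3R2, inhibitors of signalling downstream of vascular endothelial growth factor, and in human endothelial cells it represses the adhesion molecule VCAM1. miR-126-5p is the less abundant strand in many tissues and represses DLK1 in mouse endothelium. Both strands are also found in blood platelets, which carry miRNAs inherited from megakaryocytes, and miR-126 is expressed in hematopoietic stem cells. In the RefSeq annotation of the pig assembly Sscrofa11.1, the MIR126 gene spans 73 bases (1108695 to 1108767) on a sequence with no assigned chromosome. It lies inside the interval of EGFL7 (1107088 to 1119033), 1607 bases from the lower end of that interval and 10266 bases from the upper end. The annotation used gives gene intervals without exons, so its exonic or intronic place was not determined.

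The libraries held 896960 to 2103685 pig-reference reads each. Levels are given as CPM, read counts scaled to a common library size that was adjusted by TMM (trimmed mean of M values), or as RPM, scaled to the library total alone. As the PBMC label implies, lymphocyte and myeloid miRNAs were abundant. miR-150, a lymphocyte miRNA, averaged 8492 ± 2612 CPM in ICH and 11435 ± 2706 CPM in Control, and miR-23a, abundant in myeloid cells, averaged 2861 ± 514 CPM in ICH and 3073 ± 478 CPM in Control (SD, n = 10 each). miRNAs of red cells were present at a lower level than miR-150 and miR-23a. Of these, miR-451 averaged 329 CPM over all libraries, against 381 CPM for miR-126-3p. miR-451, miR-144 and miR-486 together took 426 to 1111 RPM in ICH and 103 to 860 RPM in Control, and the sum was higher in ICH in 9 of 10 pairs. miR-191, miR-340, miR-199, miR-151, miR-28 and miR-96, miRNAs reported in platelets that are also present in leukocytes, together took 46176 to 59791 RPM in ICH and 46052 to 65120 RPM in Control. In bulk samples of this kind, a change in the number of cells carrying an miRNA cannot be told apart from a change in the amount per cell.

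miR-126-3p was the dominant strand in all 20 libraries. In the pig-reference counts of ssc-miR-126-3p, 376 to 1217 reads per ICH library were assigned to it (median 530.5) and 209 to 727 reads per Control library (median 439.5). As CPM, its level in ICH ran from 264 through a median of 435 to 528, and in Control from 189 through a median of 317 to 451. Of the 10 ICH libraries, 5 lay above every Control library and 5 within the Control range, so the groups overlapped. The lowest library of each group carried the same replicate number, 4. By mean level miR-126-3p had rank 76 of the 179 miRNAs tested, above their median of 242 CPM.

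Within replicate numbers, miR-126-3p was higher in the ICH library in 10 of 10 pairs, both with TMM scaling and with plain library totals. This direction in all 10 pairs was shared by 6 of 179 miRNAs (3.35%). The size of the difference varied between numbers. Number 2 had 413 CPM in ICH and 397 CPM in Control, a 1.04-fold difference. Numbers 3 and 5 differed by 1.14-fold and 1.16-fold. Number 6 had 512 CPM in ICH and 255 CPM in Control, a 2.01-fold difference, and numbers 7 and 10 differed by 1.67-fold and 1.62-fold. The median over the 10 pairs, from log2 CPM with a prior count of 2, was 1.40-fold.

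**Figure D1:**
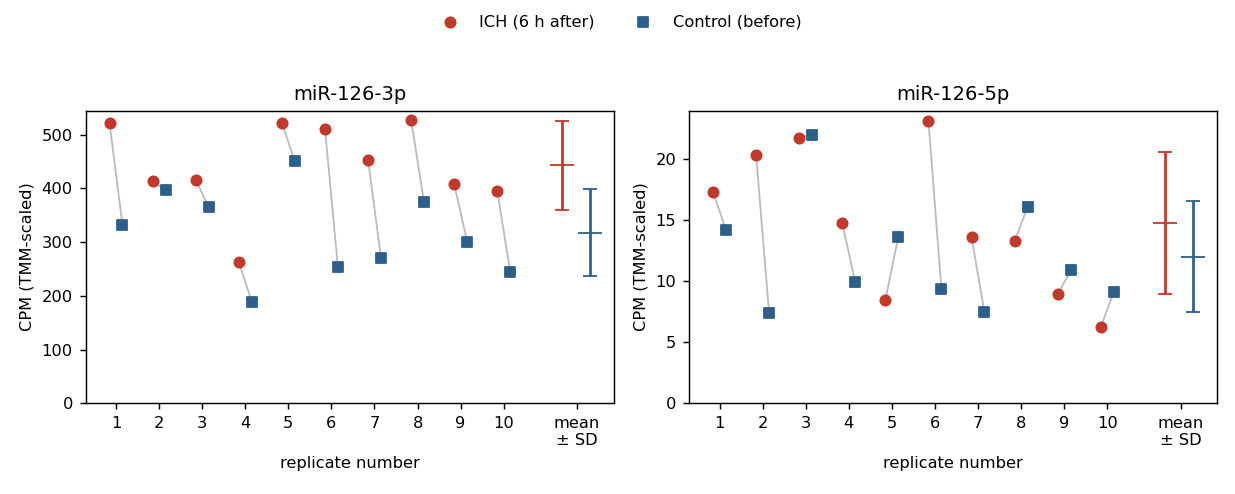
Level of miR-126-3p (left) and miR-126-5p (right) in each library of the pig-reference counts, in CPM with TMM scaling, by replicate number; red circles are ICH, blue squares Control, lines join the same number, and the bars at the right give mean ± SD of 10 libraries. miR-126-3p is higher in ICH in 10 of 10 numbers, while miR-126-5p is higher in 5 and lower in 5.

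The means were 443 ± 82.7 CPM in ICH and 318 ± 80.3 CPM in Control (SD, n = 10 each). Without pairing, the log2 fold change was 0.48 ± 0.15 (SE) and did not pass the threshold (adjusted p = 0.089, edgeR quasi-likelihood test with Benjamini-Hochberg adjustment over 179 miRNAs). In that fit 0 of 179 miRNAs passed (0%), 35 had an unadjusted p under 0.05, and miR-126-3p had the rank 7 by p. DESeq2 called 10 without pairing, miR-126-3p among them (adjusted p = 0.0194), and limma voom called 3. With the replicate number as a block, which compares the 2 libraries of one number, miR-126-3p rose by 0.50 ± 0.098 on the log2 scale (1.41-fold, adjusted p = 0.00232, edgeR). In the blocked fit 39 of 179 miRNAs passed (21.8%), 21 of them higher (11.7%) and 18 lower (10.1%), and miR-126-3p had the rank 13 by size of rise and the rank 5 by p. Without the 2 libraries of number 4, the unblocked change was 0.53 and passed (adjusted p = 0.0471, edgeR).

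The human-reference table held nearly the same counts. Its hsa-miR-126-3p counts equalled the pig-reference counts in 15 of 20 libraries and differed by 1 read in the other 5, and its hsa-miR-126-5p counts were equal in all 20. As CPM, hsa-miR-126-3p ran from 247 through a median of 442 to 541 in ICH and from 178 through a median of 304 to 394 in Control, and 9 of 10 ICH libraries lay above every Control library. The means were 440 ± 81.2 CPM in ICH and 301 ± 71.3 CPM in Control (SD, n = 10 each). The change was 0.55 ± 0.15 (log2, adjusted p = 0.0263, edgeR without the block), against 0.48 in the pig-reference fit. These fits differ in the other miRNAs of the table, in the scaling between libraries derived from them and in the number tested. With library totals in place of TMM the change was 0.43 in either set of counts, with an adjusted p of 0.19 for the pig reference and 0.196 for the human reference (edgeR). The unblocked call of hsa-miR-126-3p was also lost when any single number other than 4 or 5 was left out. With the block the human-reference rise was 0.56 ± 0.10 (1.48-fold, adjusted p = 0.000415), in 10 of 10 pairs, a direction shared by 9 of 245 miRNAs (3.67%). Without the block 9 of 245 human-reference miRNAs passed (3.67%), 7 higher (2.86%) and 2 lower (0.816%). With it 47 passed (19.2%), 32 higher (13.1%) and 15 lower (6.12%).

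miR-126-5p was scarce. In the pig-reference counts ssc-miR-126-5p had 8 to 55 reads per ICH library (median 18) and 9 to 30 per Control library (median 15.5), or 205 reads over the ICH group and 161 over the Control group. As CPM it ran from 6.27 through a median of 14.2 to 23.1 in ICH and from 7.39 through a median of 10.4 to 22.0 in Control, and 8 of 10 ICH libraries lay inside the Control range, with 1 above it and 1 below it. It had the rank 174 of 179 by mean level. The highest ICH library was number 6, which was also the deepest and held 55 reads, and the lowest was number 10 with 8 reads.

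The 5p strand was higher in ICH in 5 pairs and lower in 5. The pairs ranged from 0.621-fold (number 5, 13 reads in ICH and 22 in Control) to 2.75-fold (number 2, 19 reads in ICH and 9 in Control). The means were 14.8 ± 5.83 CPM in ICH and 12.01 ± 4.56 CPM in Control (SD, n = 10 each). Its log2 fold change was 0.31 ± 0.25 without the block (adjusted p = 0.517, edgeR) and 0.32 ± 0.22 with it (adjusted p = 0.317). The 95% interval of the blocked change, from its SE and a normal distribution, reached from 0.924-fold to 1.68-fold and so included the 1.41-fold rise of the 3p strand. For hsa-miR-126-5p the blocked change was 0.38 ± 0.22 (adjusted p = 0.26, edgeR). No change of miR-126-5p was detected at this depth, and the interval does not show that it was unchanged.

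The 2 strands come from the same hairpin, so their ratio within a library needs no scaling and asks whether they changed alike. miR-126-5p made up 1.56% to 5.29% of the reads of both strands in ICH libraries (median 3.06%) and 1.83% to 5.68% in Control libraries (median 3.57%). Pooled over libraries the shares were 3.30% of 6220 reads in ICH and 3.57% of 4509 reads in Control. Within the ICH group, 8 of 513 reads in number 10 gave 1.56% (95% Wilson interval 0.792% to 3.05%), and 21 of 397 reads in number 4 gave 5.29% (3.49% to 7.95%). Within the Control group, 9 of 492 reads in number 2 gave 1.83% (0.965% to 3.44%), and 30 of 528 reads in number 3 gave 5.68% (4.01% to 7.995%). In either group the intervals of the lowest and highest shares did not overlap. These libraries were picked as the extremes of 10, so the gap does not test for a spread beyond counting error. The intervals cover counting error only: the protocols describe no molecular identifiers, and amplified reads are not independent molecules.

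The log2 ratio of 3p to 5p reads was 4.95 ± 0.66 in ICH and 4.72 ± 0.47 in Control (SD, n = 10 each). The ratio was higher in ICH in 6 pairs and lower in 4, with a mean change of 0.23 ± 0.23 (SE). An exact two-sided sign-flip test over the 10 pairs gave p = 0.34, where the smallest p possible is 0.00195. Inverting that test gave a 95% interval of -0.29 to 0.75, a 0.817-fold to 1.69-fold change of the ratio. The largest fall was in number 2, at -1.36, and the largest rise in number 10, at 1.20. Counting error alone, from the reads of both strands, would give a SD of 0.37 for the ratio in ICH libraries and 0.39 in Control libraries. For the change within a pair it would give 0.54, against an observed SD of 0.74.

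Other hairpins gave the background for this ratio. Both strands passed the filter on low counts for 29 hairpins in the pig-reference counts and 57 in the human-reference counts. miR-126 had rank 9 of 29 by imbalance of its strands, at a mean log2 ratio of 4.84 against a median absolute log2 ratio of 3.32 over the 29. The 3p strand was the more abundant in 13 hairpins and the 5p strand in 16. The change of the miR-126 ratio had rank 8 of 29 by size, and over all 29 the median absolute change was 0.0837 on the log2 scale. In limma on the within-pair differences, 0 of 29 pig-reference hairpins passed (0%), with 2 at an unadjusted p under 0.05, and miR-126 had an adjusted p of 0.861. Of the human-reference hairpins 1 of 57 passed (1.75%), with miR-126 at an adjusted p of 0.794. That hairpin was miR-27a, whose ratio of 3p to 5p was 4.37 in ICH and 5.05 in Control on the log2 scale and fell by 0.68 ± 0.14 (adjusted p = 0.008, lower in 10 of 10 pairs). Without the pairs, limma called 0 of these 57. Without number 4 it called 1 of the pig-reference and 2 of the human-reference hairpins.

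**Figure D2:**
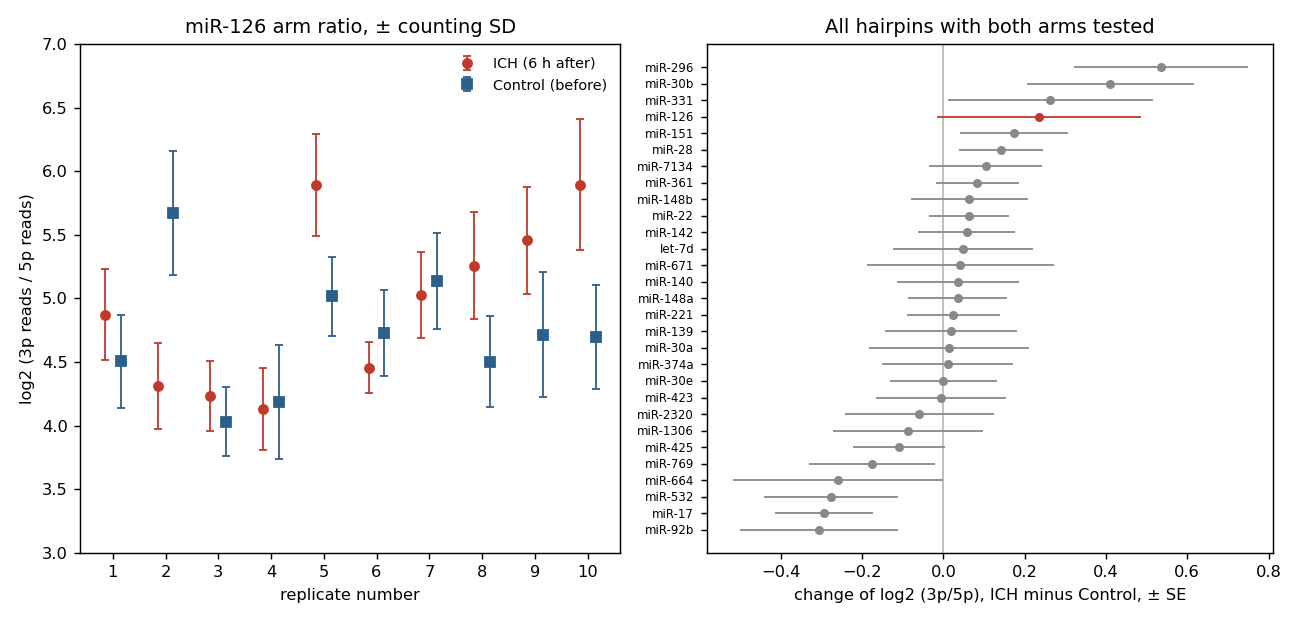
Left, log2 ratio of miR-126-3p to miR-126-5p reads in each ICH (red circles) and Control (blue squares) library of the pig-reference counts, with bars of 1 SD of counting error; right, change of the same ratio, ICH minus Control within pairs, ± SE, for all 29 hairpins with both strands tested, miR-126 in red. The ICH ratio is higher in 6 of 10 numbers, and the miR-126 change of 0.23 has one of the wider error bars.

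Levels before and after the hemorrhage were compared across the 10 numbers in 4 relations. For miR-126-3p, the log2 CPM in ICH and in Control correlated with Pearson's r = 0.66 (permutation p = 0.0324, adjusted p = 0.13 over 4 relations) and Spearman's rho = 0.62 (permutation p = 0.0613, adjusted p = 0.245). Without numbers 4 and 5, the lowest and highest Control levels, r was 0.0837, so the relation rested on them. For miR-126-5p the same relation gave r = 0.13 and rho = 0.03 (permutation p = 0.711 and 0.947, adjusted p = 0.711 and 0.947), and r was -0.23 without numbers 3 and 8. For the ratio of the strands r was 0.20 and rho 0.30 (permutation p = 0.594 and 0.411, adjusted p = 0.711 and 0.823), and r was 0.54 without numbers 2 and 3. The change of miR-126-5p against that of miR-126-3p gave r = 0.20 and rho = 0.12 (permutation p = 0.572 and 0.759, adjusted p = 0.711 and 0.947), and r was 0.46 without numbers 2 and 6. These strands share a library and its scaling.

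miRNAs with a pattern most like that of each strand were ranked by Pearson's r of log2 CPM over the 20 pig-reference libraries, among 174 other miRNAs averaging at least 10 CPM. The 20 libraries are 10 pairs and share the step from Control to ICH, and the miRNAs were picked for their r, so the values are descriptions. For miR-126-3p the first 5 were miR-181d-5p (r = 0.84), of a family abundant in lymphocytes, miR-139-5p (0.78), miR-486 (0.78), an miRNA of red cells and platelets, miR-9841-3p (0.75) and miR-10a-5p (0.72), an miRNA of the HOXB cluster. The median r over the 174 was -0.07. Without number 4, whose libraries were low for miR-126-3p and for miR-486, r was 0.76 for miR-181d-5p, 0.73 for miR-139-5p and 0.61 for miR-486. Around the group means r was 0.76, 0.69 and 0.71 for the same 3.

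Each of these 5 was also higher in ICH in the blocked fit. miR-181d-5p averaged 280 ± 59.8 CPM in ICH and 209 ± 53.9 CPM in Control, and miR-139-5p averaged 463 ± 137 CPM in ICH and 328 ± 102 CPM in Control (SD, n = 10 each). Their log2 changes were 0.44 ± 0.092 and 0.51 ± 0.096 (adjusted p = 0.00245 and 0.00229, edgeR with the block). The changes of miR-139-5p within pairs followed those of miR-126-3p most closely of the 5, with r = 0.83 over 10 pairs, against 0.59 for miR-181d-5p and 0.13 for miR-9841-3p. In the blocked fit the more abundant miR-181a and miR-181b went the other way from miR-181d-5p, at -0.39 ± 0.080 and -0.22 ± 0.079. Their adjusted p was 0.00245 and 0.049 (edgeR with the block). miR-181c, at 0.22 ± 0.14, did not pass. Members of the miR-181 family are nearly identical, and how their reads were divided is uncertain. In the human-reference counts the first 3 were miR-181d-5p, miR-486-5p and miR-139-5p (r = 0.85, 0.81 and 0.80).

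**Figure D3:**
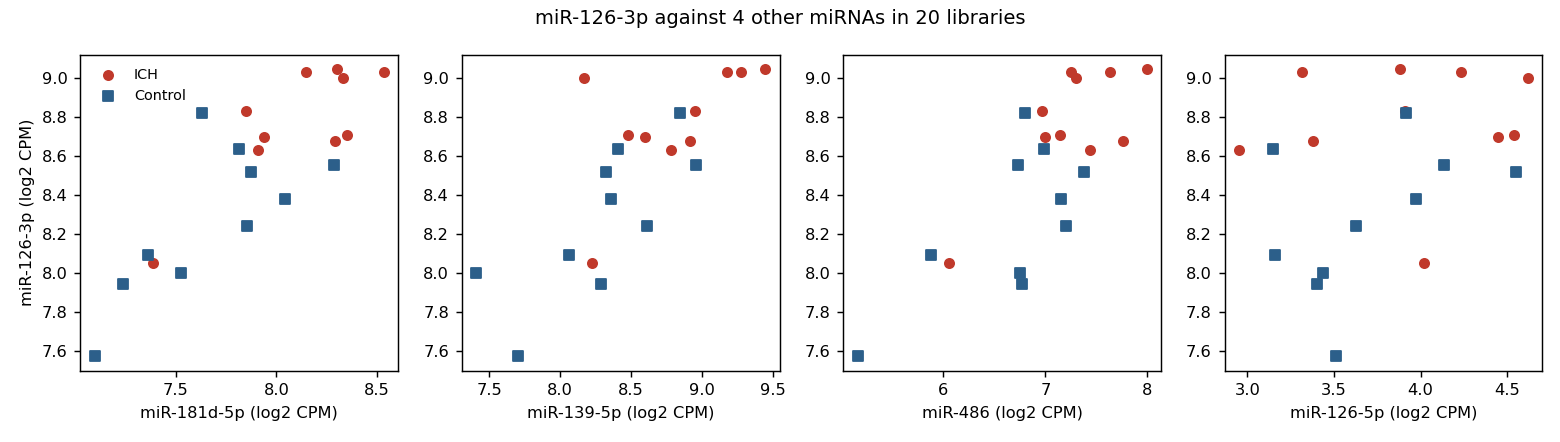
Level of miR-126-3p in log2 CPM (vertical axis) against miR-181d-5p, miR-139-5p, miR-486 and miR-126-5p (horizontal axes, log2 CPM) in 10 ICH (red circles) and 10 Control (blue squares) libraries of the pig-reference counts. The first 3 panels have r of 0.84, 0.78 and 0.78, and the last, with the other strand of the same hairpin, has r of 0.34.

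The other strand of the hairpin was not among the closest. Over the 20 libraries miR-126-5p and miR-126-3p had r = 0.34 and rho = 0.25. The first 5 for miR-126-5p were miR-210, an miRNA induced by low oxygen (r = 0.66), miR-23a (0.49), miR-339-3p (0.48), miR-9841-3p (0.47) and miR-181d-5p (0.44). These values rest on 8 to 55 reads a library. Of the 5, miR-9841-3p and miR-181d-5p are shared with the 3p strand. miR-210 itself was 61.0 ± 12.9 CPM in ICH and 56.4 ± 10.02 CPM in Control, and its blocked log2 change of 0.11 ± 0.10 did not pass (adjusted p = 0.484, edgeR). For hsa-miR-126-5p the first 3 were miR-210-3p, miR-1291 and miR-23a-3p (r = 0.69, 0.64 and 0.55).

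miR-126-3p was set beside miRNAs linked to the cell types known to carry it. In the platelet list, 1 of 9 tested entries rose with the block, miR-126-3p itself, and 2 fell, miR-151-3p (-0.27 ± 0.089, adjusted p = 0.0378) and miR-151-5p (-0.44 ± 0.11, adjusted p = 0.00658). Over all 179 miRNAs of that fit 21 rose (11.7%) and 18 fell (10.1%). The 1 rise is that of the strand being compared, so it tells nothing about the rest of the list. Among the 7 tested entries without the miR-126 strands, no entry rose and 2 fell. Of the 9 entries, 6 did not pass, among them miR-191 at -0.05 ± 0.082, miR-340 at -0.09 ± 0.12 and the joined entry miR-199a-3p@ at 0.22 ± 0.22. Without the miR-126 strands the list's median log2 change was -0.09, against -0.04 over all 179 miRNAs. The summed reads of that list without miR-126 were higher in ICH in 3 of 10 pairs, but miR-191 made up most of the sum (a mean of 46429 CPM, against 3402 CPM for miR-340) and was itself higher in 3 pairs. These counts and the median describe the list as chosen. miR-486, named above as an miRNA of red cells and platelets, was counted in the erythroid list only. It rose by 0.57 ± 0.13 (adjusted p = 0.00398, edgeR with the block).

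The vessel wall list holds miRNAs abundant in endothelium or in vascular smooth muscle. In it 2 of 11 tested entries rose, miR-10a-5p beside miR-126-3p itself, and the other 9, miR-126-5p among them, did not pass. Without the miR-126 strands, miR-10a-5p alone rose among 9 tested entries, against 11.7% of all 179. miR-10a-5p averaged 1243 ± 332 CPM in ICH and 911 ± 247 CPM in Control and rose by 0.45 ± 0.10 (adjusted p = 0.00309, 10 of 10 pairs). miR-100, miR-10b, miR-221-3p and miR-222 were at 0.07 ± 0.15, 0.11 ± 0.21, -0.16 ± 0.097 and -0.16 ± 0.11 and did not pass. miR-143-3p and miR-145-5p mark smooth muscle. miR-143-3p was at -0.09 ± 0.13 (adjusted p = 0.648), and miR-145-5p had 10 reads in all 20 libraries together. The median without miR-126 was 0.04, against -0.04 over all miRNAs tested.

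Lists of other cell types were read in the same blocked fit, in which 11.7% of all 179 miRNAs rose and 10.1% fell. In the erythroid list 1 of 3 rose, miR-486 (0.57 ± 0.13, adjusted p = 0.00398), while miR-144 (0.40 ± 0.15, adjusted p = 0.065) and miR-451 (0.57 ± 0.27, adjusted p = 0.158) did not pass. Of these 3, 2 had an unadjusted p under 0.05, and with the block DESeq2 called 2 and limma voom 1. In the lymphocyte list 6 of 10 fell, with miR-150 at -0.45 ± 0.10 and miR-31 at -0.69 ± 0.16, and 1 rose, miR-181d-5p. miR-342 was at -0.40 ± 0.15 (adjusted p = 0.0555). Of the 10 lymphocyte entries, 8 had an unadjusted p under 0.05, and with the block DESeq2 called 8 and limma voom 7. In the myeloid list 0 of 6 pig-reference entries passed, with 0 at an unadjusted p under 0.05 and 0 by DESeq2 or limma voom with the block. Of the human-reference myeloid entries 3 of 9 rose, miR-27a-5p and both strands of miR-223, for which no pig-reference entry matched by name. Of the brain list, 1 of 3 entries rose, namely miR-9@ (0.48 ± 0.12, adjusted p = 0.00543). For miR-124, the most specific neuronal miRNA of the list, no entry matched by name in either set of counts. In the muscle and liver list 0 of 2 passed, again with 0 at an unadjusted p under 0.05 and 0 by either other tool. The part that red cell, platelet or myeloid RNA takes in the rise of miR-126-3p was not tested. In the human-reference counts, with the block, 13.1% of all 245 miRNAs rose and 6.12% fell. There 1 of 10 platelet entries rose (miR-126-3p) and 1 fell (miR-151a-5p@), 2 of 11 vessel wall entries rose (miR-10a-5p beside miR-126-3p), and 2 of 4 erythroid entries rose (miR-144-3p together with miR-486-5p). In the same fit 5 of 14 lymphocyte entries fell and 2 rose, 1 of 3 brain entries rose (miR-9-5p) and 0 of 1 muscle and liver entry passed, with 0 at an unadjusted p under 0.05.

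Ratios within a library compared the change of miR-126-3p directly with that of named miRNAs. Of 21 ratios, 12 were higher in ICH past an adjusted p of 0.05 (exact sign-flip test over 10 pairs, Benjamini-Hochberg over the 21). All 21 share miR-126-3p, which itself rose within pairs, and some partners, miR-150 among them, fell in the blocked fit. A ratio to a flat or falling partner largely restates that rise, so the 12 are not separate results. The partners were named with earlier results of these data known. Relative to the platelet-linked miR-191, miR-126-3p rose by 0.54 ± 0.11 on the log2 scale, in 10 of 10 pairs (adjusted p = 0.00513, exact test). Relative to miR-340 it rose by 0.59 ± 0.21 (8 of 10 pairs, adjusted p = 0.0205, exact test) and relative to miR-151-3p by 0.77 ± 0.11 (10 of 10 pairs). The ratio to miR-199a-3p@ changed by 0.35 ± 0.32 and did not pass (adjusted p = 0.438, exact test). Relative to miR-100, miR-221-3p and miR-222 of the vessel wall list it rose by 0.47 ± 0.11, 0.65 ± 0.15 and 0.66 ± 0.14. Relative to the lymphocyte miR-150 it rose by 0.94 ± 0.15, and relative to miR-16, found across cell types, by 0.77 ± 0.16, each in 10 of 10 pairs.

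The remaining 9 ratios gave no such difference. The log2 ratio of miR-126-3p to miR-10a-5p was -1.47 ± 0.25 in ICH and -1.51 ± 0.40 in Control (SD, n = 10 each), a change of 0.04 ± 0.10 (SE; adjusted p = 0.84, exact test). The ratio to miR-21, an miRNA of activated immune cells, changed by -0.02 ± 0.13 and that to miR-486 by -0.08 ± 0.12 (adjusted p = 0.883 and 0.697, exact test), each higher in 5 of 10 pairs. The ratios to the red cell miRNAs miR-451 and miR-144 changed by -0.14 ± 0.36 and 0.06 ± 0.26. The human-reference ratio to miR-223-3p, a myeloid miRNA, changed by -0.07 ± 0.22 and that to miR-223-5p by -0.25 ± 0.12 (adjusted p = 0.84 and 0.107, exact test). Without number 6 the change against miR-223-5p was -0.32 and passed (adjusted p = 0.0379, exact test). A ratio that misses the threshold does not show that both miRNAs changed alike.

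**Figure D4:**
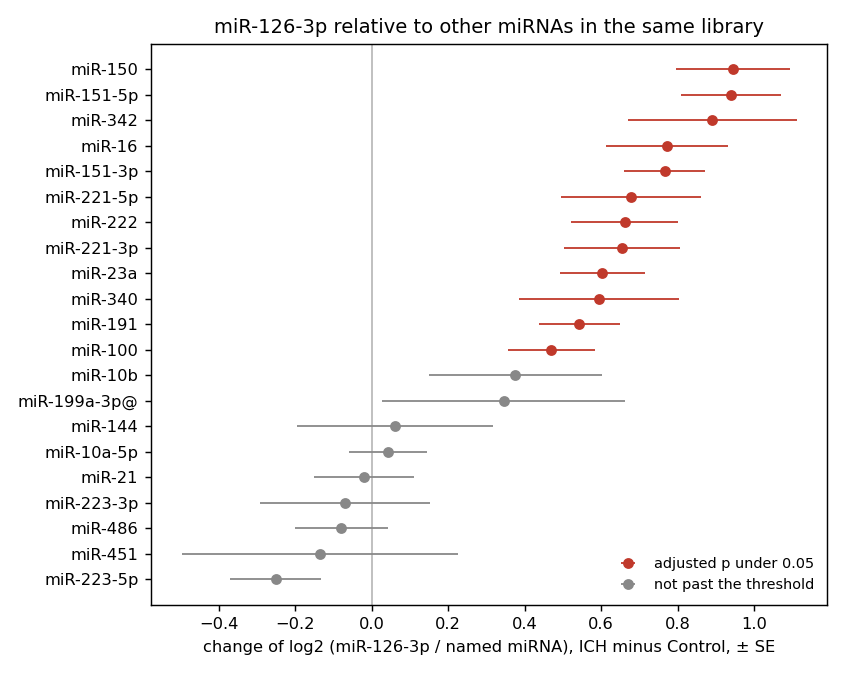
Change of the log2 ratio of miR-126-3p to each of 21 named entries within a library, ICH minus Control over 10 pairs, ± SE (horizontal axis), pig-reference counts except for the strands of miR-223, which are from the human-reference counts; red marks an adjusted p under 0.05. The ratios to miR-150 (0.94) and miR-151-5p (0.94) rose most, and those to miR-10a-5p, miR-21, miR-486 and miR-144 lie within 1 SE of 0.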

How the data were processed

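Small RNA libraries were prepared from PBMC total RNA with a NEBNext kit, per the labels' protocols, and groups and replicate numbers come from the sample titles. The authors deposited whole-number read counts per miRNA against pig and human references, filtered counts, and RPM values that equal the filtered counts scaled to their total within 0.005. Per the submitters' processing notes, bcl2fastq, FastQC and Bowtie were used with Sscrofa11.1, GRCh38 and hg38. How reads were counted, how reads matching several miRNAs were treated and what the filter removed: not given in the sources used here. Names ending in @ join several miRNAs. The filter removed 4.37% of miR-126-3p reads and 14.8% of miR-126-5p reads, against a median of 5.19% over the tested pig-reference miRNAs and 0.319% of all reads.

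Unfiltered counts were tested with edgeR 4.0.16 under R 4.3.3 (quasi-likelihood fit after TMM scaling and edgeR's default filter on low counts; Benjamini-Hochberg, threshold 0.05), all 20 libraries without a block as the primary fit. SEs were derived from the fold change and F. Ratios used log2 of counts plus 0.5, exact sign-flip tests over pairs (SciPy 1.17.1) and, across hairpins, limma 3.58.1. Exact and permutation tests were two-sided, and those of correlations drew 100000 resamples. Alternatives included DESeq2 1.42.0, limma voom, limma on log2 of RPM plus 1 or 0.5, library totals, and leaving out each number. Fits were also run on simulated counts, with results not reported here, and figures were drawn with matplotlib 3.10.9.

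The design text describes blood drawn before and after ICH, and no label names the animal. Deviations from the group means correlated between the 2 libraries of each number, at 0.129 to 0.768 for pig-reference and 0.146 to 0.672 for human-reference counts, all 10 over 0.1. For 7 of the 10 numbers, with either reference, the 2 libraries were each other's best match by this correlation. For the remaining numbers they were not, so the correlations do not bear out the pairing for every number. Libraries sharing a replicate number were treated as a pair throughout. This is an assumption on which the blocked fits, pair counts and sign-flip tests depend. Ratios to named miRNAs, and blocked versions of some alternatives, were added after seeing the data. The members, the 7 lists and the named miRNAs were chosen with earlier results of these data known. Named were the 4 entries, the miRNAs closest by r (5 per strand in the pig and 3 in the human table), a fixed set of platelet, vessel wall, red cell, lymphocyte and myeloid miRNAs with miR-21 and miR-16, and called hairpins and list members.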

Additional observations from a re-analysis of the deposited data

Results flagged for a closer look

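In 54 groups of 10 libraries (levels of the 4 entries, the 2 strand ratios and the 21 ratios to named miRNAs, in each group), 8 had a lone extreme library by Dixon's test, which sets the gap to the next library against the group's whole range at a 95% level. Chance flags about 1 in 20 groups, and most of these groups share the miR-126-3p reads. The ICH library of number 4 was the low one in 5 of them. It had a level of 8.05 log2 CPM for ssc-miR-126-3p, where the remaining 9 ICH libraries had 8.63 to 9.05, and 7.96 for hsa-miR-126-3p, where they had 8.69 to 9.08. Its log2 ratio of miR-126-3p to miR-150 was -5.73 against -4.48 to -3.73, that to miR-151-3p -2.35 against -1.45 to -0.89, and that to miR-342 -1.70 against -0.66 to 0.35. The Control library of number 4 was low for the ratio to miR-222, at -3.36 against -1.96 to -0.59. The ICH library of number 1 was high for the ratio to miR-144, at 2.69 against 0.77 to 1.76, and the Control library of number 2 was high for the ratio to miR-100, at 4.14 against 2.93 to 3.55.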

How the results depend on the processing

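With the replicate block, the rise of ssc-miR-126-3p passed the threshold in every fit run: 0.50 in edgeR, 0.45 with library totals, 0.52 in DESeq2, 0.50 in limma voom, 0.54 without a filter on low counts, 0.53 on the deposited filtered counts, and 0.44 on RPM with a pseudocount of 1 or of 0.5. Without the block it passed in DESeq2 (0.50) and when number 4 was left out. Leaving out each number gave 0.42 to 0.56 over fits with and without the block. For hsa-miR-126-3p the unblocked call was lost with library totals (0.43), without the filter (0.49) and on RPM with either pseudocount (0.45). Leaving out each number gave 0.45 to 0.57. Without the block hsa-miR-126-3p passed in 4 of 8 fits (the primary one and these alternatives) and in 2 of 10 with a number left out, and with the pairing block in 8 of 8 and 10 of 10. The block changed no call of either miR-126-5p entry. Pig-reference calls without the block numbered 0 in edgeR, 2 with library totals, 10 in DESeq2, 3 in limma voom, 0 without the filter, 2 on filtered counts and 3 on RPM. With it they numbered 39, 36, 46, 42, 41 and 38, and 38 on RPM with either pseudocount. Human-reference calls without the block numbered 9 in edgeR, 13 in DESeq2, 9 in limma voom, 6 without the filter, 9 on filtered counts, and 5 with library totals or on RPM with either pseudocount. With it they numbered 47 in edgeR, 39 with library totals, 47 in DESeq2, 47 in limma voom, 50 without the filter, 48 on filtered counts, and 39 and 42 on RPM. Leaving out each number gave 0 to 59 pig-reference and 0 to 61 human-reference calls, most in either case without number 4. Hairpins with a changed strand ratio numbered 0 to 1 (pig) and 1 to 2 (human) when a number was left out, and 0 (human) without the block. miR-126-5p and the strand ratio of miR-126 stayed short of the threshold in every alternative run, on 8 to 55 reads of miR-126-5p a library. The size of change that could pass at that depth was not tested. For the pig-reference strand ratio, the change ran from 0.13 to 0.41 with each number left out in turn. Its p ran from 0.0547 to 0.602 (exact sign-flip test). Leaving out single numbers turned the sign of 5 ratios that never passed, with ranges of -0.074 to 0.21 for miR-144, -0.10 to 0.053 for miR-21, -0.14 to 0.089 for miR-223-3p, -0.29 to 0.15 for miR-451 and -0.038 to 0.080 for miR-10a-5p. The causes were not tested.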
